A study of Homo sapiens with 4 samples.

Results

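The genes described here are those of the transforming growth factor beta (TGF-beta) and bone morphogenetic protein (BMP) pathways, followed in 4 sorted fractions of Huh7, an established human hepatocellular carcinoma line. A list of 39 pathway genes was set against the probes that the array annotation assigns to exactly 1 gene. Of these, 38 had such a probe, out of 18377 genes named in this way, and BMPR1A, a type I BMP receptor, had none. The fractions were CD133-positive and CD133-negative cells in one flow cytometry sort, and ALDH-positive and ALDH-negative cells in the other. CD133 is the surface protein encoded by PROM1, and ALDH stands for aldehyde dehydrogenase. The labels name no treatment, and all 4 fractions are parts of a single cell line, not of a tumour. The series sets the positive fractions, as cancer stem cells, against the negative fractions. Each fraction was measured on 1 array, so no p-value or replicate spread stands behind a difference between fractions.

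TGF-beta, activin and BMP ligands bind pairs of type I and type II receptor kinases, which phosphorylate SMAD proteins. SMAD2 and SMAD3 carry the signal of TGF-beta and activin, SMAD1 and SMAD5 that of BMPs, and SMAD4 is the partner of both branches. In liver, TGF-beta is known for restraining hepatocyte growth and for driving fibrosis, and BMP signalling for setting the iron hormone hepcidin. The members fall into ligands with their storage protein, receptors, SMAD transducers, inhibitors and target genes.

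Promoter sequence is shown for the members with the largest differences that have a single annotated start: ANKRD1 and TGFB2, both higher in CD133-positive cells, and FST, higher in ALDH-positive cells. Each is the 250 bases before the start in RefSeq, build GRCh38.p14, read along the gene's strand. The ANKRD1 stretch is chr10:90921088-90921337 on the minus strand, the TGFB2 stretch chr1:218345086-218345335 on the plus strand and the FST stretch chr5:53480379-53480628 on the plus strand. Capitals mark matches, on either strand, to CAGAC, the short core bound by SMAD3 and SMAD4, to CATTCC, the core bound by TEAD factors, and to TATAAA, the TATA box. The searches for GTCTAGAC, a longer SMAD palindrome, and for GGCGCC, a GC-rich element of BMP targets, found no match in these stretches.
ANKRD1: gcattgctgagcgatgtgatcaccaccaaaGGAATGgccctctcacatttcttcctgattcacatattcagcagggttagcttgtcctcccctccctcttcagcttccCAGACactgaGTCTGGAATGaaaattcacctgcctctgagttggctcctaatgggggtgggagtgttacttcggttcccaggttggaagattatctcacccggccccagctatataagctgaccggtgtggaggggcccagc
TGFB2: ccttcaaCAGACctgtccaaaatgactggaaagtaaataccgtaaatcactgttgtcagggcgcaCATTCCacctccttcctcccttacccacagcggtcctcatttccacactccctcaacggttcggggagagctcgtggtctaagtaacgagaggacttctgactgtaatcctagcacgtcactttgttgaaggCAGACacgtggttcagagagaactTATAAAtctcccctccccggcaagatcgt
FST: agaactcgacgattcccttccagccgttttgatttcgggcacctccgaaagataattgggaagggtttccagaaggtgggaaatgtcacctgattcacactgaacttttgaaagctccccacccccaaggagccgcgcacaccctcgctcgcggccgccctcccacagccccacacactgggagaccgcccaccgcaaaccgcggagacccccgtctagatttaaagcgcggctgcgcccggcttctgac

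ANKRD1 held 2 matches to CAGAC, which begin 142 and 132 bases before the start, and 2 to CATTCC, which begin at 220 and 128 bases. The match at 132 overlaps the one at 128 by its last base. TGFB2 held 2 matches to CAGAC, at 243 and 53 bases, 1 to CATTCC at 185 bases and 1 TATA box at 29 bases. FST held none of these letters in this window. Such matches are common: of 35116 RefSeq promoter windows of this length, 38.0% held CAGAC, 11.9% CATTCC and 10.7% TATAAA. RefSeq windows were found for 34 of the 39 listed genes, 63 windows in all, of which 39.7% held CAGAC and 12.7% CATTCC. GTCTAGAC stood in 0.182% of all windows and in 1 of the 63, that of SMAD6, and GGCGCC in 16.4% of all and 23.8% of the 63.

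The values are log2 expression values, on which 1 unit is a doubling. Levels of different genes are not compared, because each comes from its own probe. The median log2 value per array lay between 4.92 and 5.04, and the arrays correlated at 0.982 to 0.989 over all probes. PROM1 was 12.8-fold higher in CD133-positive cells than in their negative fraction and 2.42-fold lower in ALDH-positive cells than in theirs. ALDH1A1 differed by 0.04 (log2) in the ALDH sort, so this transcript gives no check of the ALDH labels. All 12 measured hepatocyte markers, among them ALB and AFP, were above the expression floor on all 4 arrays. That floor is 4.98, the median of all values. Of the markers of other cell types, 6 of 12 for fibroblasts and stellate cells (DCN, LUM, THY1, FAP, ACTA2 and RGS5), 7 of 10 for endothelium and 7 of 10 for leukocytes, PTPRC among them, were below the floor on every array. The mean log2 value of the fibroblast and stellate list ran from 4.52 to 4.64 over the arrays. The median difference of the hepatocyte list was -0.38 for CD133 and 0.10 for ALDH, and its part in the results was not tested. Since whole fractions were measured, fewer cells of a type and less RNA per cell cannot be told apart.

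Most of the pathway differed little between positive and negative cells. In each sort 32 of the 38 members were above the floor on at least 1 of its arrays, and the same 6 were below it on all 4 arrays: TGFB3, BMP6, BMP7, INHBA, BMPR1B and NOG. In the CD133 sort 4 of the 32 (12.5%) were at least 1.5-fold higher in positive cells, beside 2.74% of 11591 genes above the floor, and 0 were as much lower, beside 1.89%. The 4 were ANKRD1, LTBP1, BMP4 and TGFB2. In the ALDH sort 1 of 32 (3.12%), FST, was at least 1.5-fold higher and 1, ANKRD1, as much lower, beside 4.15% and 6.6% of 11879 genes, so these shares were no larger than those of all genes. At 2-fold, 2 of the 32 were higher in CD133-positive cells, ANKRD1 and LTBP1, beside 0.716% of genes, and 0 lower, beside 0.164%. With values raised to the floor LTBP1 was short of 2-fold, which left 1 member, ANKRD1, beside 0.544% of genes. In the ALDH sort 0 were higher at 2-fold, beside 0.278%, and ANKRD1 alone was lower, at -1.0 just on the threshold, beside 1.3%. Over all 38 measured members the median difference was -0.03 for the CD133 sort and -0.02 for ALDH, and over all 18377 genes -0.01 and 0.03. The typical size of a difference, whatever its direction, was 0.12 for the 32 members against 0.17 for all genes above the floor in the CD133 sort, and 0.23 against 0.23 in the ALDH sort.

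**Figure D1:**
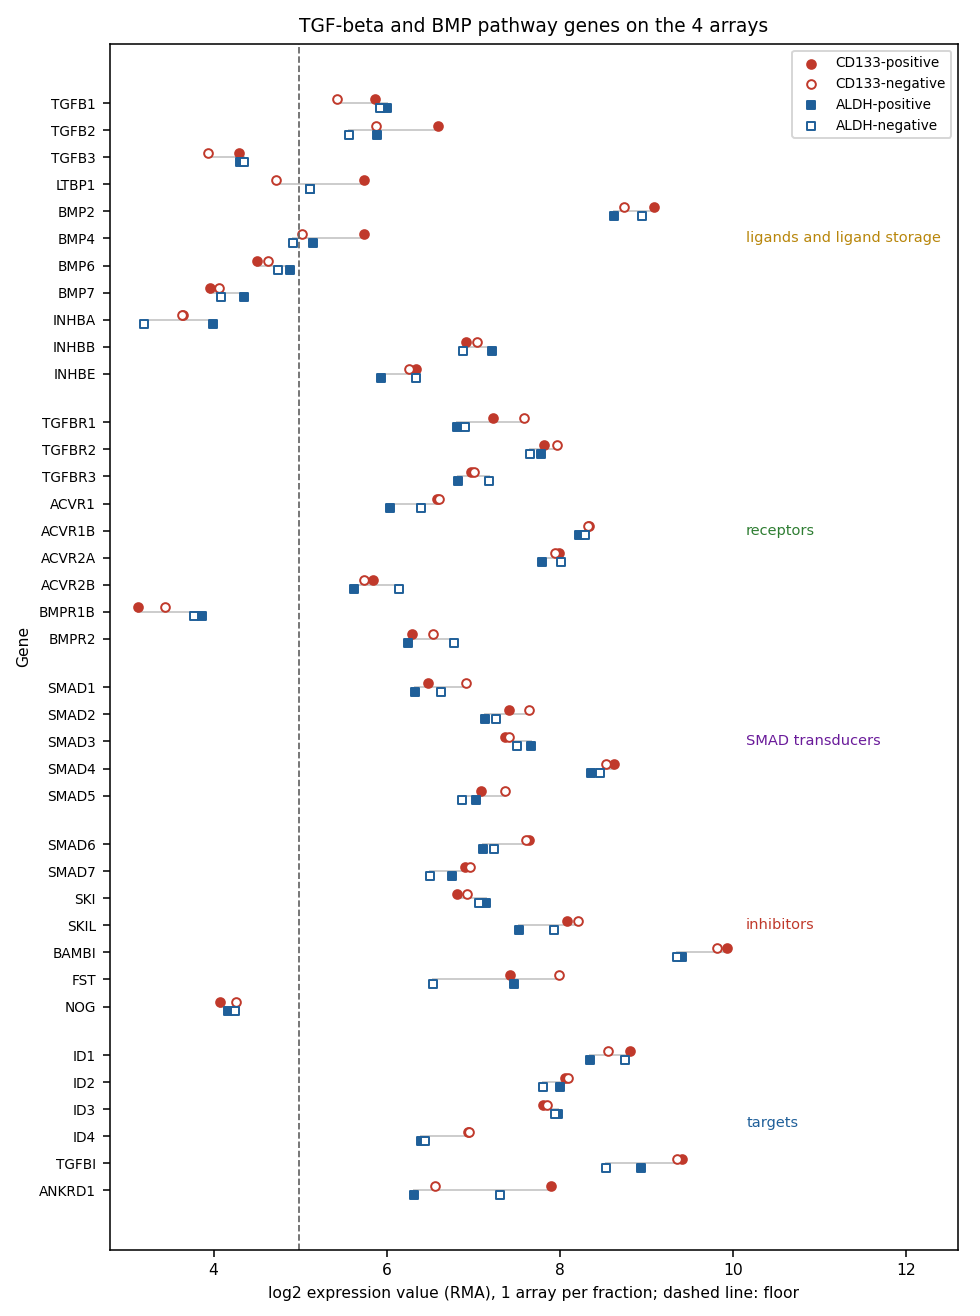
Log2 expression value (x axis) of each of the 38 measured genes (rows, grouped by role) on the 4 arrays, with circles for the CD133 sort, squares for the ALDH sort, filled symbols for positive and open symbols for negative fractions; each symbol is 1 array and the dashed line is the floor of 4.98. ANKRD1, LTBP1, TGFB2 and BMP4 show a filled circle well to the right of the open one, and FST a wide gap between its squares.

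Of the 7 ligand and storage genes above the floor, 6 (85.7%) were higher in CD133-positive cells, beside 42.9% of all genes above the floor, and 5 (71.4%) were higher in ALDH-positive cells, beside 48.5%. The difference between these groups of genes was not tested. Over all 11 the median was 0.35 for CD133 and 0.14 for ALDH, and 4 of the 11 lay below the floor. LTBP1, the protein that ties latent TGF-beta to the matrix, had a log2 level of 5.74 in the CD133-positive and 4.72 in the CD133-negative fraction, and 5.12 and 5.11 in the ALDH-positive and ALDH-negative fractions. CD133-positive cells were thus the high fraction, and the ALDH fractions lay between both CD133 fractions. The difference was 1.02, but the CD133-negative value is below the floor, and against the floor LTBP1 was at least 1.69-fold higher. LTBP1 passed the floor in this sort only through its brighter array.

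TGFB2, a TGF-beta ligand, measured 6.59 in the CD133-positive and 5.87 in the CD133-negative fraction, and 5.89 and 5.57 in the ALDH-positive and ALDH-negative fractions. It was 1.64-fold higher in CD133-positive cells and 1.25-fold higher in ALDH-positive cells, the same direction in both sorts. BMP4, a BMP ligand of early liver development, measured 5.74, 5.02, 5.15 and 4.92 in the same order. It was 1.65-fold and 1.18-fold higher in the positive fractions, with 3 of its 4 values close to the floor. TGFB1, the main TGF-beta of fibrotic liver, stood at 5.86, 5.43, 6.01 and 5.92, and differed by 0.43 and 0.09. CD133-negative cells were the low fraction for TGFB1, and the other 3 values lay within a narrow band.

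BMP2, a further BMP ligand, measured 9.09, 8.74, 8.62 and 8.95 and went opposite ways, by 0.35 for CD133 and -0.33 for ALDH. INHBB, which encodes the subunit of activin B, went the other way round, by -0.13 and 0.33. INHBE, the liver-enriched inhibin subunit, differed by 0.09 and by -0.40. Of the ligands below the floor, INHBA, the subunit of activin A, showed the widest gap, with 3.99 in the ALDH-positive and 3.20 in the ALDH-negative fraction. A gap of 0.79 between such dim values is uncertain. TGFB3, BMP6 and BMP7 differed by -0.13 to 0.35 for CD133 and by -0.04 to 0.26 for ALDH, all below the floor.

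None of the receptors reached 1.5-fold in either sort. Of the 8 above the floor, 7 (87.5%) were lower in ALDH-positive cells, beside 51.5% of all genes above the floor, and 5 (62.5%) in CD133-positive cells, beside 57.1%. Their median differences were -0.28 for ALDH and -0.03 for CD133. BMPR2, the type II BMP receptor, measured 6.29 in the CD133-positive and 6.53 in the CD133-negative fraction, and 6.25 and 6.77 in the ALDH-positive and ALDH-negative fractions. It was 1.18-fold and 1.44-fold lower in the positive fractions, so both positive fractions lay below both negative ones. ACVR2B, a type II activin receptor, measured 5.84, 5.73, 5.62 and 6.15, with ALDH-negative cells as the high fraction and a 1.44-fold lower value in ALDH-positive cells.

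TGFBR1, the type I TGF-beta receptor, measured 7.23, 7.58, 6.81 and 6.91, and differed by -0.35 and -0.10. TGFBR2, its type II partner, differed by -0.16 and 0.12, and the coreceptor TGFBR3 by -0.04 and -0.35. ACVR1, a type I receptor of BMPs and activins, differed by -0.02 and -0.36, ACVR2A, a type II activin receptor, by 0.04 and -0.22, and ACVR1B, the type I activin receptor, by 0.01 and -0.08. The probe of BMPR1B, a type I BMP receptor, lay below the floor everywhere.

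Of the 5 SMAD transducers, all above the floor, 4 were lower in CD133-positive cells (median -0.23) and 3 in ALDH-positive cells (median -0.10). With 57.1% and 51.5% of all genes above the floor lower, counts over 5 genes do not set this group apart. SMAD1, of the BMP branch, measured 6.47 in the CD133-positive and 6.92 in the CD133-negative fraction, and 6.32 and 6.63 in the ALDH-positive and ALDH-negative fractions. Both positive fractions lay below both negative ones, by 1.36-fold and 1.23-fold, an order that was not counted over all genes. SMAD5, of the same branch, differed by -0.28 and 0.16. SMAD2, of the TGF-beta branch, differed by -0.23 and -0.12, but its other probe, the dimmer of 2, gave 0.12 and -0.38, so the direction in the CD133 sort differs between probes. SMAD3 differed by -0.05 and 0.16, and SMAD4, the shared partner, by 0.09 and -0.10.

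Of the inhibitors, FST showed the widest difference in both sorts, and the others stayed short of 1.5-fold. FST encodes follistatin, a secreted protein that binds and blocks activins. It measured 7.42 in the CD133-positive and 7.98 in the CD133-negative fraction, and 7.47 and 6.53 in the ALDH-positive and ALDH-negative fractions. CD133-negative cells were the high fraction and ALDH-negative cells the low one, with both positive fractions close together. FST was thus 1.48-fold lower in CD133-positive and 1.91-fold higher in ALDH-positive cells. Of 11879 genes above the floor in the ALDH sort, 47 had a higher difference.

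SKIL, a repressor that binds SMADs, measured 8.08, 8.20, 7.53 and 7.93, and differed by -0.12 and -0.40. SKI, its relative, differed by -0.11 and 0.09. The inhibitory SMADs, themselves induced by the pathway, were close to level in the CD133 sort and less so in the ALDH sort. SMAD6 differed by 0.03 and -0.12, and SMAD7 by -0.05 and 0.25. BAMBI, a decoy receptor without a kinase, differed by 0.12 and 0.06. NOG, the BMP antagonist noggin, was below the floor on all arrays, at 4.07 to 4.26.

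ANKRD1 showed the largest difference of all members in both sorts, in opposite directions. In the ALDH sort its lead over FST was narrow and depended on the normalization. After a second quantile normalization FST differed by 1.03 and ANKRD1 by -0.95. ANKRD1 encodes a muscle-type ankyrin repeat protein and is a widely used target gene of TGF-beta and of the YAP and TEAD factors. It measured 7.90 in the CD133-positive and 6.55 in the CD133-negative fraction, and 6.31 and 7.31 in the ALDH-positive and ALDH-negative fractions. The high fractions were CD133-positive and ALDH-negative cells, and all 4 values were above the floor. ANKRD1 was 2.54-fold higher in CD133-positive and 2.0-fold lower in ALDH-positive cells. In the CD133 sort 34 of 11591 genes had a higher difference, and in the ALDH sort 153 of 11879 had a lower one. PROM1 has its high and low fractions in the same places, and what part the share of CD133-positive cells has in the ALDH difference was not tested.

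The ID genes, which encode inhibitors of DNA binding and are the standard readout of BMP signalling, differed less. ID1 measured 8.80, 8.56, 8.34 and 8.75 and differed by 0.25 and -0.40, with CD133-positive and ALDH-negative cells as its high fractions, as for ANKRD1, but short of 1.5-fold in both sorts. ID2 differed by -0.03 and 0.20, ID3 by -0.05 and 0.03, and ID4 by -0.01 and -0.04. TGFBI, a matrix protein named for its induction by TGF-beta, measured 9.41, 9.35, 8.94 and 8.54 and differed by 0.06 and 0.40. TGFBI thus went the opposite way to ANKRD1 in the ALDH sort, and was close to level in the CD133 sort.

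The sorts were then set side by side, to see whether the positive fractions of both shared a direction. They share no array. Of the 32 members above the floor in both sorts, 6 were higher in both positive fractions, 8 lower in both and 18 opposite, which is 56.2% beside 48.5% of 11293 genes. At 1.5-fold in both sorts, 1 member was opposite, ANKRD1, beside 1.39% of genes, and 0 had the same direction, beside 0.257%. Over the 32 members, Pearson's r between the differences was -0.30 and Spearman's rho -0.15. Over the 11293 genes they were -0.12 and 0.02. The values of all 4 arrays come from RMA and may share 1 normalization, and genes are not independent replicates.

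**Figure D2:**
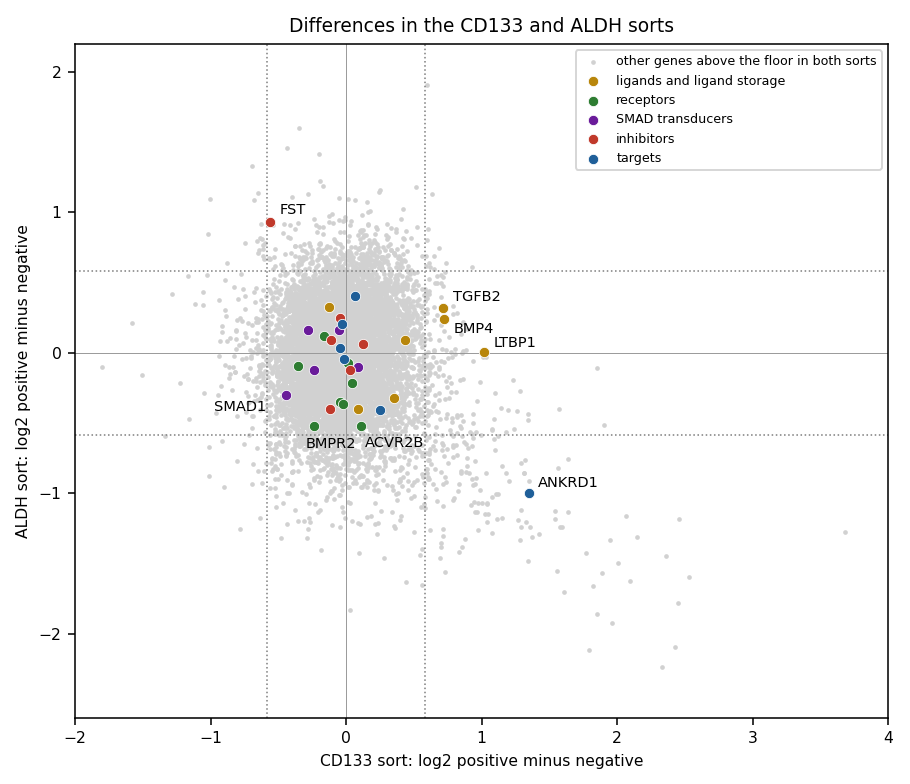
Log2 difference, positive minus negative, in the CD133 sort (x axis) and in the ALDH sort (y axis), 1 point per gene, for the 32 pathway genes above the floor in both sorts (coloured by role) over all other such genes (grey), with dotted lines at 1.5-fold. Most coloured points lie in the central square, LTBP1, BMP4 and TGFB2 lie right of it, FST above it, and ANKRD1 (1.35 and -1.0) among the grey points that run to the lower right.

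A test of marker status over both sorts took the CD133-positive and ALDH-positive arrays against their negative arrays, with the sort as a covariate. This fit has 1 residual degree of freedom and tests neither sort alone. Its residual is the disagreement between a gene's CD133 and ALDH differences. The SE and p-values rest on that disagreement, moderated over all genes, and not on replicate spread. At an adjusted p under 0.05 limma called 0 of 18377 genes (0.0%) and 0 of 38 members, and 1165 genes and 2 members had an unadjusted p under 0.05. The members were TGFB2, with a mean difference of 0.52 ± 0.20 (SE) and a limma adjusted p of 0.763, and BMP4, with 0.48 ± 0.20 and the same adjusted p. Both were higher in 2 of 2 positive fractions. A small p in this fit already favours genes whose sorts agree, so that shared direction is no separate support. Of the 11293 genes compared before, 2381 had it too. Between the sorts, TGFB2 differed by 0.50 ± 0.20 (SE), with a limma adjusted p of 0.427, and BMP4 by 0.34 ± 0.20, with 0.563. For ANKRD1 the mean difference by marker status was 0.17 ± 0.42, with a limma adjusted p of 0.965, since its sorts opposed each other. For FST it was 0.18 ± 0.30, with a limma adjusted p of 0.943.

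The arrays of one sort also differed from those of the other, for some members more than positive from negative cells did. Both CD133-sort arrays lay above both ALDH-sort arrays for 14 of 32 members (43.8%), beside 30.2% of 12177 genes above the floor on at least 1 array, and below them for 4 (12.5%), beside 15.1%. The 14 included the receptors TGFBR1, TGFBR2, ACVR1 and ACVR1B, the transducers SMAD2, SMAD4 and SMAD5, and the inhibitors SMAD6, SMAD7, SKIL and BAMBI, with ID2, ID4 and TGFBI among the targets. The 4 were TGFB1, SMAD3, SKI and ID3. The mean of the CD133-sort arrays minus that of the ALDH-sort arrays had a median of 0.17 over the members and of 0.05 over all these genes. The further pathway genes described below leaned the other way.

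TGFBI differed most clearly in this way, by 0.64 ± 0.19 (SE), with a limma adjusted p of 0.357. ID4 measured 6.94 and 6.95 in the CD133 sort and 6.40 and 6.44 in the ALDH sort, a difference of 0.53 ± 0.18 with a limma adjusted p of 0.379. BAMBI measured 9.93 and 9.81 against 9.41 and 9.35, by 0.49 ± 0.18 with a limma adjusted p of 0.411. SMAD6 measured 7.64 and 7.61 against 7.12 and 7.24, by 0.45 ± 0.19 with a limma adjusted p of 0.441. For ID4, BAMBI and SMAD6 the gap between sorts was wider than that between positive and negative cells of either sort. Limma called 0 of 18377 genes (0.0%) and 0 of 38 members for the sort, while 1954 genes and 8 members had an unadjusted p under 0.05. Sort, culture and handling cannot be told apart in this comparison.

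**Figure D3:**
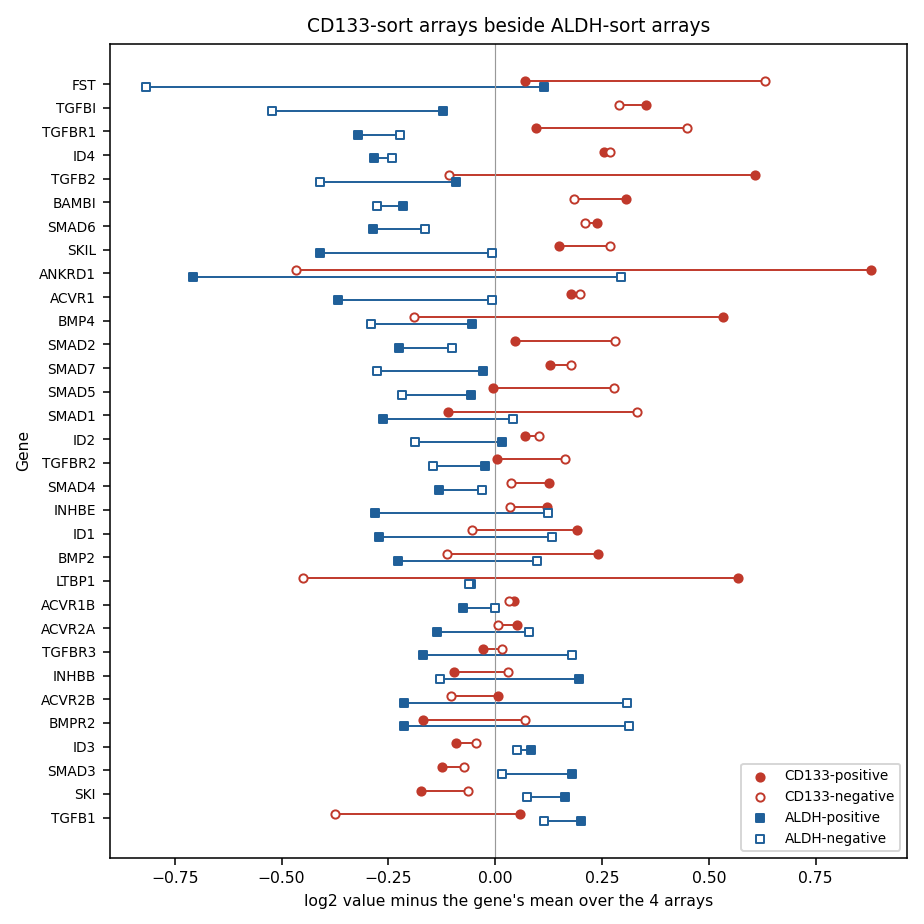
Log2 value minus the gene's own mean over the 4 arrays (x axis) for the 32 pathway genes above the floor on at least 1 array (rows), with each sort's positive and negative array joined by a line, circles for CD133 and squares for ALDH. The red and blue lines are apart for 18 genes, such as ID4, BAMBI and SMAD6, and overlap for the others, such as ANKRD1 and LTBP1.

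A wider list of 109 further pathway genes, 101 of them measured, gave the setting for these members. In the CD133 sort 69 were above the floor, and 10 of them (14.5%) were at least 1.5-fold higher and 2 (2.9%) as much lower in positive cells, beside the 2.74% and 1.89% of all genes. With values raised to the floor, GDF2 and SNAI2 dropped out, which left 9 (13.0%) higher and 1 (1.45%) lower, beside 2.05% and 1.41%. In the ALDH sort 5 of 71 (7.04%) were higher and 6 (8.45%) lower, beside 4.15% and 6.6%. The median over the measured genes was 0.08 for CD133 and 0.05 for ALDH. Between the sorts these genes leaned the opposite way to the members. Both CD133-sort arrays lay above both ALDH-sort arrays for 12 of 72 (16.7%), beside 30.2% of all genes. They lay below them for 19 (26.4%), beside 15.1%, and the median of CD133-sort minus ALDH-sort arrays was -0.11.

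Of the 10 genes higher in CD133-positive cells, 4 were on the list of targets, 3 on that of ligands and storage proteins, 2 on that of receptors and coreceptors and 1 on that of antagonists. FSTL1, a secreted follistatin-like protein, measured 7.48 in the CD133-positive and 5.63 in the CD133-negative fraction, and 6.11 and 6.22 in the ALDH-positive and ALDH-negative fractions. It was 3.61-fold higher in CD133-positive cells and close to level in the ALDH sort, at -0.11. FBN1, the microfibril protein to which latent TGF-beta complexes attach, measured 6.31, 4.67, 5.0 and 5.76. Set against the floor it was higher in CD133-positive cells by at least 2.51-fold, and it was 1.69-fold lower in ALDH-positive cells.

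ITGB8 and ITGAV, the subunits of an integrin that activates latent TGF-beta, had the same high fractions, CD133-positive and ALDH-negative. ITGB8 measured 5.66, 4.13, 4.87 and 6.0, and against the floor was higher in CD133-positive cells by at least 1.60-fold and differed by -1.01 in the ALDH sort. ITGAV measured 8.93, 8.27, 8.17 and 8.70, and differed by 0.66 and -0.53. BMP1 encodes a protease that processes matrix proteins and the BMP antagonist chordin, and was read from the brighter of 2 probes. It was 1.51-fold higher in CD133-positive cells, just past the threshold, and 1.37-fold lower in ALDH-positive cells. CHRD, the gene of chordin, was 1.71-fold lower in CD133-positive cells and close to level in the ALDH sort, at -0.045. GDF2, the ligand BMP9, differed by 0.98, but by 0.26 against the floor.

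Target genes of the wider list were split. The cell cycle inhibitors CDKN1A and CDKN2B were 1.73-fold and 1.72-fold higher in CD133-positive cells, and 1.68-fold and 1.38-fold lower in ALDH-positive cells. TAGLN, an actin-binding protein, measured 6.21 in CD133-positive cells and 5.09 to 5.20 in the other 3 fractions. LOXL2, a collagen cross-linking enzyme, was higher by at least 1.62-fold in CD133-positive cells. The repressor SNAI2 differed by -1.15, and by -0.29 against the floor. CCN2, a target of both TGF-beta and YAP, differed by 0.30 and 0.29, and HAMP, the hepcidin gene and a BMP target of hepatocytes, by -0.35 and 0.14. CCN2 thus had the direction of ANKRD1 in the CD133 sort only, and HAMP in neither sort, while CDKN1A and CDKN2B had it in both. The 12 fibroblast and stellate markers had median differences of 0.003 for CD133 and 0.07 for ALDH. Of these, 6 were below the floor on every array, and the others, COL1A1 among them, were above it on at least 1.

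In the ALDH sort the 5 higher genes of the wider list were as follows. SOST, the secreted antagonist sclerostin, was 1.92-fold higher in ALDH-positive cells, SPHK1, a lipid kinase, 1.65-fold, LRRC32, a surface anchor of latent TGF-beta, 1.59-fold, the BMP coreceptor RGMA 1.56-fold and the transcription factor RUNX3 1.53-fold. Lower by 1.5-fold or more, besides ITGB8, FBN1 and CDKN1A, were HEY1 (-0.72), a repressor induced by Notch and BMP signals, TRIM33 (-0.66), a SMAD-binding ubiquitin ligase, and ACVR1C (-0.59), a type I receptor that sits at the threshold of 0.58. None of the 5 higher genes lay below the floor on either ALDH array, but some of their ALDH-negative values were close to it. These values were 5.125 for SOST, 5.161 for RGMA and 5.227 for RUNX3. For LRRC32 and SPHK1 they were 5.331 and 5.479.

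**Figure D4:**
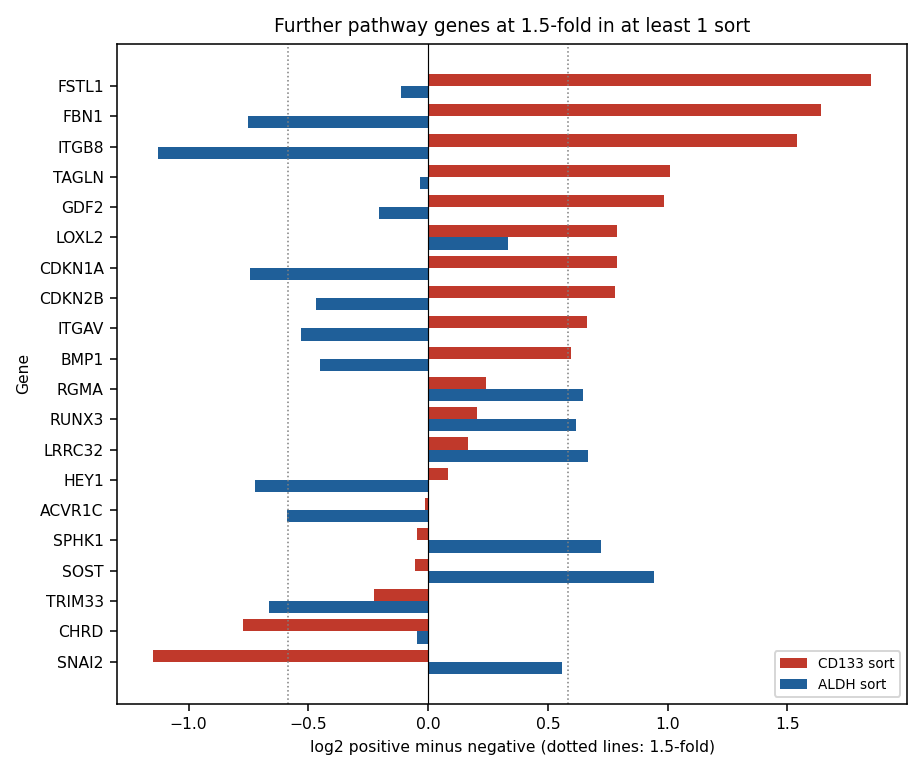
Log2 difference, positive minus negative (x axis), in the CD133 sort (red bars) and the ALDH sort (blue bars) for the further pathway genes above the floor that reach 1.5-fold (dotted lines) in at least 1 sort; each bar is the difference of 1 array from 1 array, with no error. FSTL1 (1.85), FBN1 (1.64) and ITGB8 (1.54) have the longest red bars, and FBN1, ITGB8 and CDKN1A have bars past the lines on opposite sides.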

How the data were processed

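RNA of 4 sorted fractions was measured on 1 array each. Per the submitters' processing notes the deposited values come from RMA (robust multi-array averaging). The log2 scale of the deposited values was read from their range, 0.556 to 13.5, and later centring, version and build are not given in the sources used here. RMA evens out the distributions of the arrays, which hides any change common to most genes.

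Of 28869 probes, the platform annotation gave 19310 exactly 1 symbol, 1752 several and 7807 none, and 19279 matched a RefSeq gene of GRCh38.p14. Each gene was read from the probe of highest mean, giving 18377 genes. Differences are positive minus negative. Genes were counted at 1.5-fold if at least 1 array of that sort was at or above 4.98, the overall median value. With 1 array per group there is no test within a sort. Marker status and sort were fitted together with limma (lmFit, eBayes, Benjamini-Hochberg over all genes), which leaves 1 residual degree of freedom. Whether arrays come from separate cultures is not stated. In this fit the residual of a gene is the disagreement between its CD133 and ALDH differences, which eBayes moderates over all genes. The SE and p-values rest on that disagreement and not on replicate spread, and the number of arrays limits the precision. The fit was also run on simulated data, with a common spread for all genes and the same change in both sorts. The real data hold genes whose sorts disagree, so that run cannot show how the fit performs on them. All listed members were accounted for, and members and further genes at 1.5-fold were given with their values. Others, such as CCN2 and HAMP, were chosen after their values were seen. The members, lists and settings were chosen with earlier results of these data known. Other thresholds, floors, probe rules, normalizations, centring and limma settings were tried. R 4.3.3, limma 3.58.1, Python 3.11.15, statsmodels 0.14.6 and matplotlib 3.10.9 were used.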

Additional observations from a re-analysis of the deposited data

Results flagged for a closer look

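Genes at 1.5-fold or more in both sorts but in opposite directions were ANKRD1 (1.35 for CD133 and -1.0 for ALDH), FBN1 (1.64 and -0.75), ITGB8 (1.54 and -1.13) and CDKN1A (0.79 and -0.74). FBN1 in the CD133 sort and ITGB8 in both sorts passed the floor only through the brighter array. With values raised to the floor, FBN1 differed by 1.33 for CD133, and ITGB8 by 0.68 for CD133 and -1.01 for ALDH. The difference between sorts was not tested, since 4 arrays leave no residual spread for an interaction of marker and sort. Across all genes 157 of 11293 (1.39%) met the same description.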

How the results depend on the processing

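At 2-fold, 2 members (ANKRD1 and LTBP1) were higher in CD133-positive cells and 0 higher in ALDH-positive cells, and of the further pathway genes 4 were higher and 1 lower in the CD133 sort, and 0 higher and 1 lower in the ALDH sort. With a floor set at the 75th percentile, 2 members were higher in CD133-positive cells. Without a floor, 2 members and 8 further genes were higher in ALDH-positive cells, the added member being INHBA. Other counts of members and their medians stayed within 1.5 times, or 0.1 log2, of the values given, after values were raised to the floor, probes averaged, a second quantile normalization, loess or centring. With the ALDH labels exchanged, 14 members instead of 18 would be opposite in the sorts. This follows by arithmetic, since the exchange only reverses the sign of each ALDH difference. Single differences of the further genes were not followed through the normalizations or centring. Each difference of 1.5-fold or more of a member above the floor kept its direction, and most moved by less than 0.1. The exceptions were LTBP1 in the CD133 sort, at 0.76 with values raised to the floor, and FST in the ALDH sort. FST came to 1.03 after a second quantile normalization. In the ALDH sort LTBP1, level at 0.003, came to -0.05 after that normalization and -0.08 after loess, and ANKRD1 to -0.95 after either, short of 2-fold. With values raised to the floor, a setting chosen after seeing the data for the further pathway genes, 1 of these, CHRD, was lower in the CD133 sort. Limma called 0 genes and 0 members under each setting with all 4 arrays, for marker status and for sort. Fits with 1 array left out dropped the other factor and had 1 array on one side, so they cannot show robustness. The fit of marker status with the sort as a block is the one given, and without that block limma called 0 genes too. Values near the floor carry little signal over background.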
